A study of Rattus norvegicus with 24 samples.

Results

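The collagen genes are the 44 of the 30667 deposited rows whose symbol has the form Col, a number, a and a number, such as Col1a1. The rule takes them by name alone and uses no measured value. The members were chosen with earlier results of these data known. By the structure of the protein, 11 of them are fibrillar, 8 belong to basement membranes and 25 to other classes. The study used rats in which lung cancer was modelled with smoky coal, a bituminous coal. Its 24 libraries are mRNA sequencing of lung tissue, and every one carries the protocol label smoky coal. A title is one of 4 letters (A, B, C, G) followed by one of the numbers 1 to 6, which gives 6 libraries per letter and 4 per number. What the letters and numbers stand for, and the strain, age, dose, time point and any unexposed control, are not given in the sources used here. No source says whether equal numbers mark related animals, or that libraries came from separate animals, so p-values measure only the spread between these samples.

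Collagens are the most abundant proteins of the extracellular matrix, and all of them wind 3 chains into a triple helix. Fibrillar collagens, mainly types I, III and V, are secreted as procollagens, trimmed outside the cell and cross-linked into fibrils that carry the tension of the airway and vessel walls and of the alveolar septa. Type IV collagen forms the sheet-like network of basement membranes: the chains encoded by Col4a1 and Col4a2 are found in nearly all of them, while those of Col4a3, Col4a4 and Col4a5 form a second network in the alveolar and the kidney basement membrane. Type VI collagen forms beaded filaments between fibrils and cells. Other members decorate fibrils, span the cell membrane or anchor epithelia to the tissue beneath. In the lung, fibroblasts are the main source of fibrillar chains and rise in activity in scarring, and endothelial and epithelial cells also make type IV chains.

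The 6 type IV genes lie in 3 pairs that are read in opposite directions from neighbouring start sites. Sequence from 2 of these intervals is shown because the paired genes kept nearly fixed ratios in the libraries described below. The sequences are from RefSeq, rat build GRCr8, where the table used has promoter windows for 35 of the 44 genes, and capitals mark matches to a CCAAT box (letters CCAAT), a GC box (letters GGGCGG) or a TATA box (letters TATAAA) on either strand. The annotated starts of Col4a1 (plus strand) and Col4a2 (minus strand) on chromosome 16 are 77 bases apart, those of Col4a3 and Col4a4 on chromosome 9 are 413 apart, and those of Col4a5 and Col4a6 on chromosome X are 1415 apart. The first sequence is the whole interval between the Col4a1 and Col4a2 starts, chr16:84885521-84885596, and the second the 250 bases before the Col4a3 start, chr9:91323740-91323989, both 5′ to 3′ on the plus strand.
Col4a1/Col4a2 interval: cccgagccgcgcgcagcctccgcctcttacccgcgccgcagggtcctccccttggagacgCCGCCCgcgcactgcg
Col4a3 upstream: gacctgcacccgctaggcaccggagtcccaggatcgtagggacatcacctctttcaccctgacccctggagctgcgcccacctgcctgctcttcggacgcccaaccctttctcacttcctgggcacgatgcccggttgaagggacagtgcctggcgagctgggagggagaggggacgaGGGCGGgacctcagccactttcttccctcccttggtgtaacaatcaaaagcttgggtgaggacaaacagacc
Each holds 1 GC box match, which lies on the other strand in the first, and no match to the other motifs. A GC box match occurred in the 250 bases before 19 of the 35 collagen starts and before 32.4% of all 27457 RefSeq starts. In windows of 76 bases it occurred before 19.3% of all starts. A match describes the letters only and is not a measured binding site.

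Values are normalized read counts per gene, as deposited. They sum to between 61717500 and 66007100 per library, and the number of reads behind them is unknown, so no counting error is given. The submitters' processing notes name the mouse build GRCm38 and STAR for these rat samples, and the effect of a mouse reference on rat collagen reads was not tested. Levels of different genes are not compared, because no transcript lengths were at hand, and paralogous collagens with shared sequence and genes that overlap on opposite strands are uncertain where the counting is not stated. Summed levels of the alveolar type 2 cell markers were 1082410 to 1616080 normalized counts per library (Sftpc, Sftpb, Sftpa1, Lamp3 and Abca3). The library A4 stood apart in squamous epithelial and skeletal muscle genes and was highest in cardiac muscle genes (Krt13 6899, Acta1 41069 and Myh6 18330 normalized counts, with medians of 35.3 and 841 over the 24 libraries for Krt13 and Acta1). Myh6 was also high in other libraries, at 9136 in G5 and 3452 in B4. B4 also held skeletal muscle genes, with Acta1 at 11389 and with Myh1 at 1129, above the 597 of A4.

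No collagen gene passed the test for a difference between the letters. Over the 4 letters, 0 of 44 collagens passed an adjusted p of 0.05 in the limma F test, where 0.00652% of all 30667 genes passed, and 2 of 44 had an unadjusted p under 0.05, against 3.91% of all genes. In each of the 6 pairs of letters the count was also 0, against 0% of all genes in B or C against A and in C against B, 0.00652% in G against A and in G against C, and 0.00326% in G against B. At an unadjusted p under 0.05 there were 1 in B against A, 1 in C against A, 0 in C against B, 5 in G against A, 2 in G against B and 3 in G against C, where 3.58%, 2.98%, 1.82%, 8.15%, 3.67% and 4.03% of all genes had one. Col1a1, the alpha 1 chain of type I and a marker of fibril-producing cells, averaged 47362 ± 27468 normalized counts in the A libraries, 50415 ± 33177 in those of B, 44572 ± 29178 in those of C and 46012 ± 27500 in those of G (SD over 6 libraries each). Its log2 fold change in G against A was -0.03 (SE 0.44, limma unadjusted p = 0.954). The number in the title was not a term in this fit, so differences by number add to that SE. Col3a1, which forms fibrils with type I in compliant tissue, had 113245 ± 62254, 121456 ± 75005, 111602 ± 62459 and 117233 ± 52994 in A, B, C and G. Within a letter the highest library held 2.43 to 4.85 times the lowest for Col1a1, Col1a2 and Col3a1, and the letters overlapped.

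Col20a1 and Col26a1 had the smallest p-values by letter. Col20a1, a fibril-associated collagen, averaged 742 ± 85.0 normalized counts over the G libraries, 599 ± 90.2 over A and 592 ± 32.9 over C (SD over 6 libraries each). The G libraries ran from 666 to 891, overlapping A (up to 672) and B (up to 713) but not C (up to 628). Col20a1 was picked for its small p, and the share of all genes in which G and C do not overlap is not given here. The gap to C is therefore a description. Its log2 fold change in G against A was 0.32 (SE 0.09, limma unadjusted p = 0.00243, adjusted p = 0.358), and in G against C 0.32 (SE 0.09, unadjusted p = 0.00216), and neither passed. Col26a1, a collagen known from testis and ovary, averaged 35.7 ± 25.2 in G and 17.1 ± 3.80 in B. Its log2 fold change in G against B, 0.81 (SE 0.32), did not pass either (limma unadjusted p = 0.0182), and the G mean was raised by G1, at 83.5, where the next G library had 40.8. In the other pairs the collagens with the smallest p were Col4a4, Col2a1 and Col25a1. Col4a4 had a log2 fold change of 0.28 in B against A (limma unadjusted p = 0.0484), Col2a1 one of -1.50 in C against A (unadjusted p = 0.0370) and Col25a1 one of 0.68 in C against B (unadjusted p = 0.0745).

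By class, 0 of the 11 fibrillar, 0 of the 8 basement membrane and 0 of the 25 other genes passed between letters, and medians are given as a description. All 8 basement membrane collagens had a positive log2 fold change in B against A and in C against A, with medians of 0.19 and 0.12, and 7 of 8 did in G against A, with a median of 0.20. These 3 comparisons share the A libraries. The 11 fibrillar genes had medians of 0.06 (9 positive), -0.09 (4 positive) and -0.03 (4 positive) in the same comparisons, and the 25 others 0.11 (19 positive), 0.08 (20 positive) and 0.12 (17 positive). Over all genes the medians were -0.01, -0.01 and -0.01, with 48.0%, 48.4% and 48.8% positive. Without A, 12 of the 44 collagens were positive in C against B, 20 in G against B and 26 in G against C, where 50.5%, 50.1% and 49.9% of all genes were. All collagens together took 0.976% ± 0.331 of the summed values of the A libraries, 1.06% ± 0.381 of B, 1.01% ± 0.326 of C and 1.02% ± 0.252 of G (SD over 6 libraries each). These shares weight long transcripts more, and they differed between letters by less than the spread within a letter.

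The number in the title separated the libraries instead. With the letter as a term in the model, 29 of 44 collagens passed an adjusted p of 0.05 in the limma F test over the 6 numbers, and 31.5% of all 30667 genes did. At an unadjusted p under 0.05 there were 31 collagens, against 41.9% of all genes. In a fit without the 4 libraries numbered 1, 20 collagens passed, and without the 8 libraries numbered 1 or 2, 11 passed. Fewer libraries enter these fits, and the share of all genes that passed in them is not given here. The lower counts are therefore not a result about the collagens. More abundant genes passed more often: of the genes with a mean of at least 1000 normalized counts 58.3% passed, and 24 of the 27 collagens in that range. With means of 100 to 1000 the figures were 44.2% of all genes and 5 of 6 collagens, and below 100 they were 8.85% and 0 of 11. The numbers held a median of 59.8% of the variance of a collagen gene on the log2 scale and the letters 8.15%, against 37.1% and 9.45% over all genes. With 6 numbers and 4 letters, the numbers can take a larger share by their count alone. For the 27 abundant collagens the number's median share was 67.5%, and over all abundant genes 53.7%. In bulk tissue fewer cells of a type and less RNA per cell cannot be told apart, and whether the numbers are animals, batches, ages or days is not given in the sources used here.

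**Figure D1:**
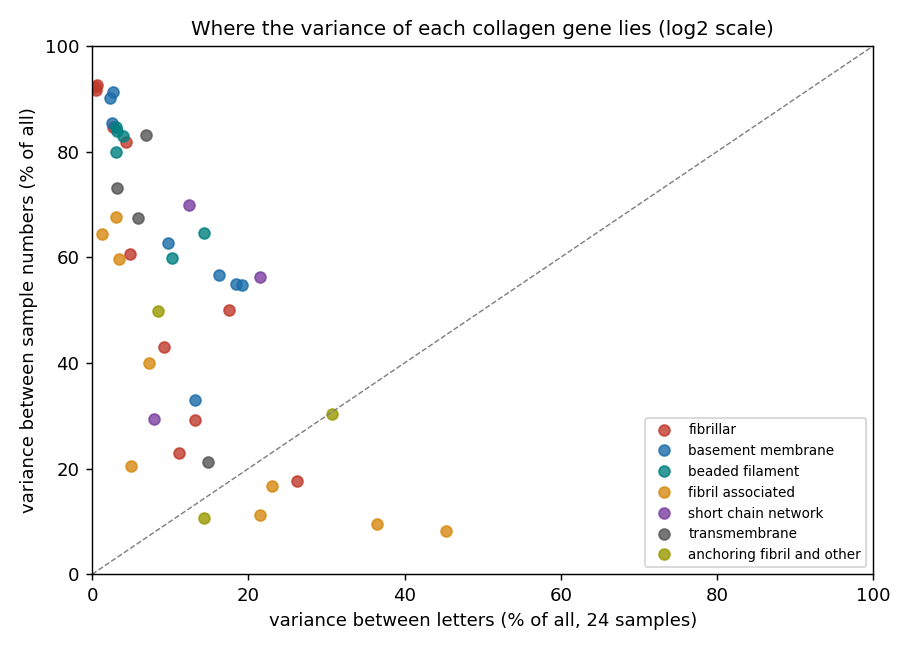
For each of the 44 collagen genes, the share of its variance over 24 libraries (log2 scale, percent) that lies between letters (horizontal axis) and between sample numbers (vertical axis), coloured by structural class. The dashed line marks equal shares, and most points lie above it, with medians of 59.8% for numbers and 8.15% for letters.

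Collagen mRNA took its largest share in the samples numbered 1. On the log2 scale, 31 of the 44 genes had their highest mean in number 1, and 22 of the 29 that passed the test did, whereas 16.0% of all genes and 21.2% of abundant genes peaked there. The lowest mean fell in number 6 for 17 of 44, against 17.6% of all genes and 22.0% of abundant ones, and in number 2 for 11 of 44, against 21.9% and 30.7%. The 4 libraries numbered 1 lay above all 20 others for 10 collagens: Col4a1, Col4a2, Col5a2, Col6a1, Col6a2, Col6a3, Col6a6, Col7a1, Col12a1 and Col15a1. Of all genes 1.35% did so, and of abundant genes 3.44%. All collagens together took 1.58% ± 0.128 of the summed values in number 1 (SD, n = 4), 1.20% ± 0.133 in number 2, 0.916% ± 0.0734 in number 3, 0.818% ± 0.0580 in number 4, 0.831% ± 0.0460 in number 5 and 0.757% ± 0.0728 in number 6. Taken letter by letter, the library numbered 1 was the highest of the 6 for 26 of 44 collagens in each of A, B and C and for 18 of 44 in G. The share of all genes that did so within a letter is not given here, so these counts are a description.

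**Figure D2:**
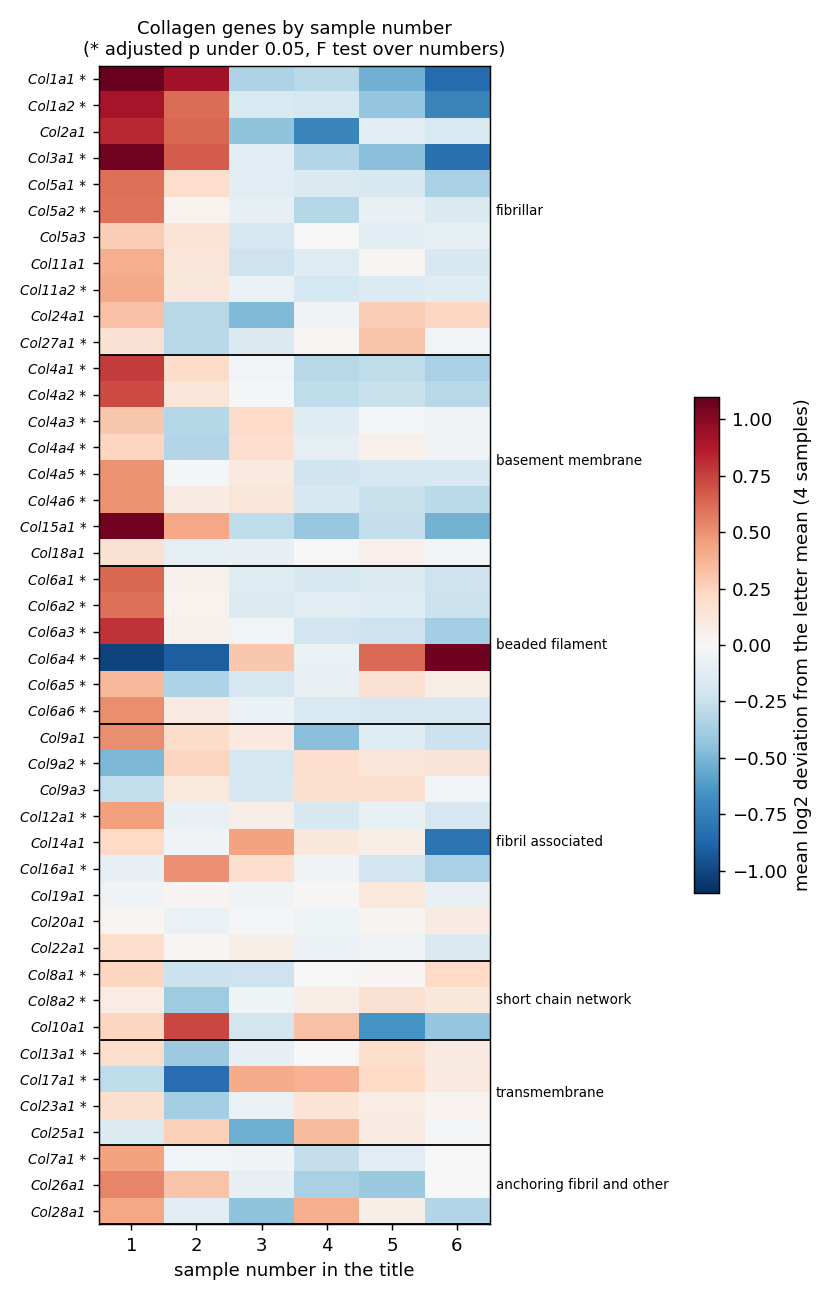
Mean log2 deviation from the letter's own mean for each of the 44 collagen genes (rows, by structural class) in the 4 libraries of each sample number (columns). Stars mark the 29 genes with an adjusted p under 0.05 in the F test over numbers, and most starred rows are reddest in number 1, with Col6a4 as the clearest exception.

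The type I and III genes, the abundant chains of fibrils, were high in numbers 1 and 2. Col1a1 had 86793, 96300, 98916 and 67330 normalized counts in A1, B1, C1 and G1, and 75465, 88678, 56773 and 92339 in A2, B2, C2 and G2. It had 30740, 37711, 30704 and 29729 in the samples numbered 3, in the same order of letters, 43593, 28641, 29193 and 32905 in those numbered 4, 27414, 31290, 29814 and 24427 in those numbered 5 and 20167, 19870, 22031 and 29344 in those numbered 6. The 8 libraries numbered 1 and 2 lay above the 16 others, with no overlap, and the highest of the 16 was A4, the library that stood apart. The share of all genes with such a split is not given here, so for this and the genes below it is a description. Without A4 in the fit 30 of 44 collagens passed over numbers, and without B4 29 did, with the share of all genes in either fit not given here. The Col1a1 mean in number 1 was 3.82 times that in number 6 (limma F test over numbers, adjusted p = 3.04e-07).

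Col1a2, the alpha 2 chain of type I, had 98963, 100944, 94454 and 74491 in A1, B1, C1 and G1, 72201, 80492, 66383 and 79884 in number 2 and 40331, 49474, 41173 and 42922 in number 3. In numbers 4, 5 and 6 its values ran from 39050 to 46760, from 32921 to 39496 and from 25439 to 40736. It showed the same separation of numbers 1 and 2 from the rest, with 3.07 times as much in number 1 as in number 6 (adjusted p = 2.76e-07). Col3a1 had 226096, 236406, 223343 and 181486 in number 1 and 137455, 193205, 143502 and 187002 in number 2. It ran from 88685 to 100228 in number 3, from 72137 to 88955 in number 4, from 63841 to 85287 in number 5 and from 47569 to 87516 in number 6, again below every library numbered 1 or 2. Its ratio of number 1 to number 6 was 3.60 (adjusted p = 5.10e-07).

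**Figure D3:**
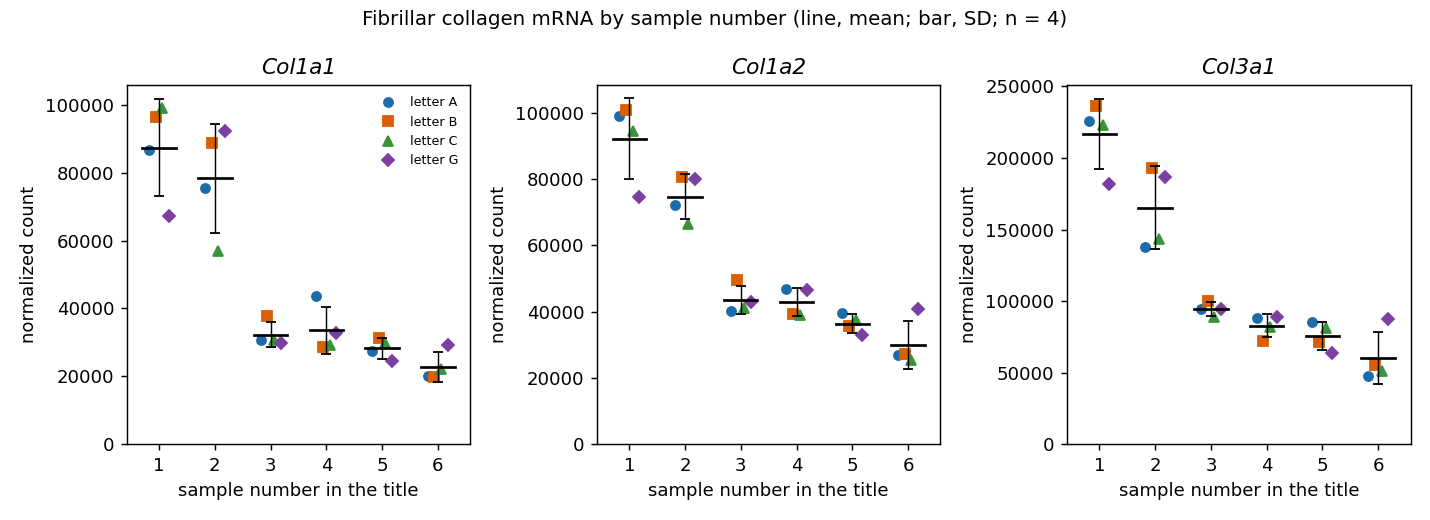
Normalized counts of Col1a1, Col1a2 and Col3a1 (linear axes from 0) in the 24 libraries by sample number, with letters as colours and shapes, the mean as a line and the SD as a bar (n = 4). In all 3 genes the libraries numbered 1 and 2 lie above those numbered 3 to 6, whatever the letter. The share of all genes that do so is not given here.

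The type V chains, which set the width of type I fibrils from inside, followed with smaller steps. Col5a1 had 17272 ± 2235, 12933 ± 1534, 10433 ± 1152, 10130 ± 899, 10042 ± 1229 and 8781 ± 436 normalized counts in numbers 1 to 6 (SD, n = 4; adjusted p = 1.35e-05). Col5a2 was highest in number 1, without overlap, at 39478 ± 2885, with 27107 ± 5096 in number 2 and means of 20986 to 24674 in the others (adjusted p = 2.50e-05). Col5a3, the third type V chain, did not pass (1287 ± 171 in number 1 and 1005 ± 222 in number 6, adjusted p = 0.426). Col11a2, a chain of the cartilage fibril type XI, passed with 999 ± 138 in number 1 and 679.6 ± 99.4 in number 6 (adjusted p = 0.0122), while Col11a1 averaged 27.5 to 42.3 and did not (adjusted p = 0.386). The distant fibrillar genes Col24a1 and Col27a1 had another order: Col27a1 passed (adjusted p = 0.00698) with its highest mean in number 5, 1726 ± 242, and its lowest in number 2, 1123 ± 130.1. Col24a1 averaged 66.0 to 114 and did not pass (adjusted p = 0.0831). Col2a1, the main chain of cartilage fibrils, was near the bottom of the scale, with 112 normalized counts in A2 and at most 24.8 in the others (adjusted p = 0.505). In all, 7 of 11 fibrillar genes passed, where 31.5% of all genes and 58.3% of those with a mean of at least 1000 did.

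Of the basement membrane genes 7 of 8 passed, where 31.5% of all genes and 58.3% of those with a mean of at least 1000 did. The type IV genes were not all ordered alike. Col4a1 had 137857, 149864, 131249 and 124466 normalized counts in A1, B1, C1 and G1, and 79596, 96097, 95314 and 96959 in number 2. It had 69048, 87026, 80386 and 76796 in number 3, and ran from 59488 to 75644 in number 4, 60510 to 75744 in number 5 and 57706 to 71689 in number 6. Number 1 stood alone above the rest, at 2.17 times number 6 (limma adjusted p = 3.04e-07), and number 2 overlapped number 3. Its head-to-head partner Col4a2 had 84371 ± 6932, 56474 ± 5466, 50574 ± 4799, 42490 ± 4926, 43421 ± 4117 and 41630 ± 3617 in numbers 1 to 6 (SD, n = 4; adjusted p = 8.41e-07).

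Col4a3 and Col4a4, chains of the alveolar network, had their lowest mean in number 2 and no gap between number 1 and the rest. Col4a3 had 20666 ± 1460, 13819 ± 3355, 19408 ± 1891, 15398 ± 1824, 16591 ± 2315 and 16363 ± 1265 in numbers 1 to 6 (adjusted p = 0.00305), with its lowest value, 8921, in A2. Its values in B2, C2 and G2, 15931, 14361 and 16062, lay within the 13213 to 17677 of number 4. The place of number 2 as lowest for Col4a3 thus rests on A2. Col4a4 had 34430 ± 3433, 23669 ± 5103, 33011 ± 1452, 27105 ± 3514, 30365 ± 3742 and 28406 ± 2621 (adjusted p = 0.00303). Col4a5, also a chain of the alveolar network, and Col4a6, found in smooth muscle basement membrane, were high in number 1, with 18533 ± 2507 against 11533 ± 644 in number 6 (adjusted p = 0.00173) and 2936 ± 319 against 1700 ± 209 (adjusted p = 0.00259). On the log2 scale the ratio of Col4a1 to Col4a3 averaged 2.72 in number 1 and 2.77 in number 2, and 1.93 to 2.08 in numbers 3 to 6. The lowest ratio in numbers 1 and 2 was 2.59 and the highest in the other numbers 2.31, so these libraries did not overlap. This difference between the networks is a description and was not tested.

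Col15a1 and Col18a1 encode basement membrane zone collagens whose ends release the fragments restin and endostatin, and they behaved unlike each other. Col15a1 had 20419, 23069, 18221 and 20844 in number 1 and 12181, 13385, 17210 and 10930 in number 2, and 4802 to 10059 in the 16 others. Its number 1 to number 6 ratio was 2.90 (adjusted p = 6.32e-06), and no library of numbers 3 to 6 reached the lowest of numbers 1 and 2, at 10930. How many of all genes split in that way is not given here. Col18a1 had the smallest SD on the log2 scale, 0.17, among the collagens with a mean of at least 50. Its means by number were 5239 to 6299 and it did not pass (adjusted p = 0.196).

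The beaded filament class passed in full, 6 of 6, where 31.5% of all genes and 58.3% of those with a mean of at least 1000 passed. Its core chains Col6a1, Col6a2 and Col6a3, which form the common type VI trimer, had 41379 ± 3343, 46503 ± 3392 and 64597 ± 3232 in number 1 and 22853 ± 1485, 25955 ± 2051 and 29036 ± 3957 in number 6 (SD, n = 4). Their adjusted p-values were 1.76e-05, 7.13e-05 and 1.06e-05. Col6a1 averaged 27961 in number 2 and 24473 in number 3, with overlapping ranges. The alternative chains Col6a5 and Col6a6, which can take the place of Col6a3, were also highest in number 1, at 10396 ± 764 and 5374 ± 429.8 (adjusted p = 0.00321 and 0.000532). Col6a5 then had its lowest mean in number 2, at 6564 ± 1712.

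Col6a4, another alternative type VI chain, ran the other way. It had 129, 137, 133 and 220.4 normalized counts in A1, B1, C1 and G1, 115, 252, 166 and 146 in number 2, 423, 329, 419.6 and 343 in number 3 and 249, 179, 408 and 396 in number 4. It had 393, 483, 627 and 417 in number 5 and 498, 788, 610.0 and 722 in number 6. Every library numbered 3, 5 or 6 lay above every library numbered 1 or 2, and number 4 was mixed, with A4 and B4 inside the low range. How many of all genes had this order is not given here. The mean in number 6 was 4.23 times that in number 1 (adjusted p = 1.27e-05), and its SD of 0.85 on the log2 scale was the largest among the collagens with a mean of at least 50.

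**Figure D4:**
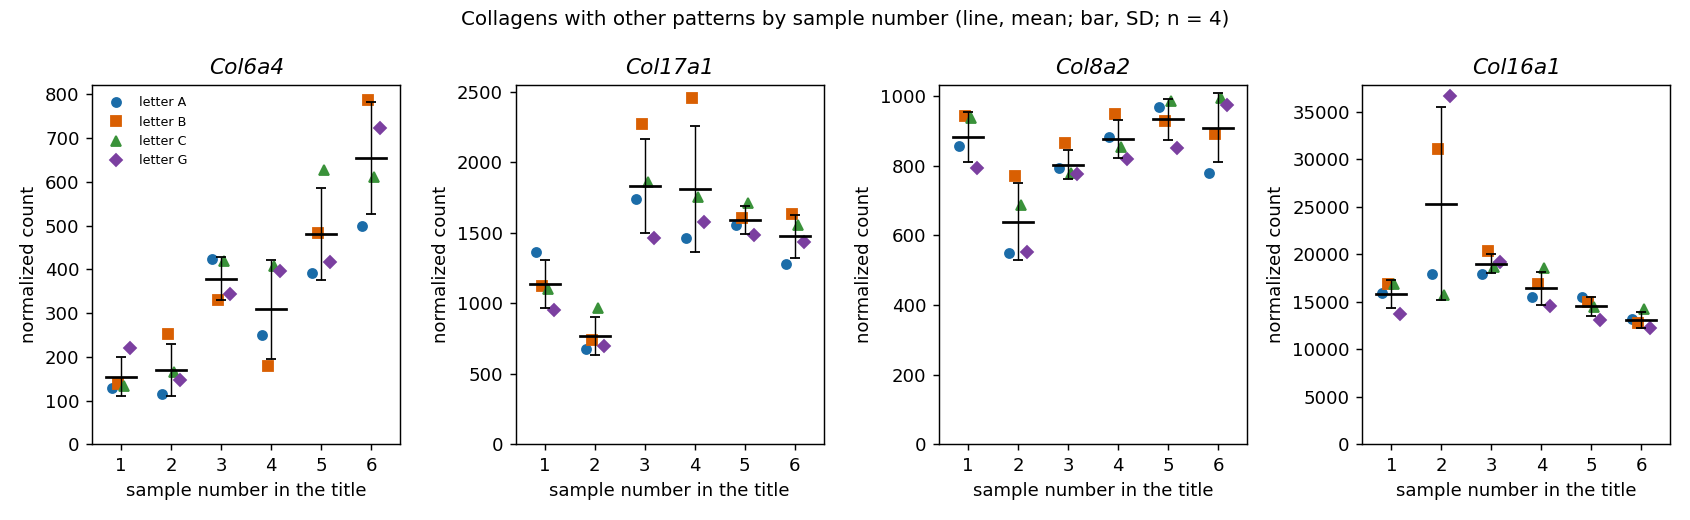
Normalized counts of Col6a4, Col17a1, Col8a2 and Col16a1 (linear axes from 0) by sample number in 24 libraries, with letters as colours and shapes, the mean as a line and the SD as a bar (n = 4). Col6a4 is low in numbers 1 and 2, Col17a1 and Col8a2 are lowest in number 2, and Col16a1 in number 2 splits into a pair of high libraries, B2 and G2, and a pair of low ones.

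Several transmembrane and short-chain collagens had their lowest mean in number 2. On the log2 scale 11 of 44 collagens did, near the 21.9% of all genes and below the 30.7% of abundant ones. The lowest single library was A2 for each of Col13a1, Col17a1, Col23a1, Col8a1 and Col8a2. A2 also had the lowest summed alveolar type 1 and endothelial markers of the 24 libraries, at 161841 and 157910 normalized counts. Its summed neutrophil markers, at 31092, were the highest. The part of this in the collagen values of A2 was not tested. Col17a1, the hemidesmosome collagen of epithelial cells, had 678, 739.9, 969.7 and 697 in A2, B2, C2 and G2, 1365, 1121, 1104 and 955 in number 1 and 1739, 2273, 1860 and 1465 in number 3. Number 2 was lowest but for C2, which lay above G1, and the means in numbers 4, 5 and 6 were 1814 ± 447, 1590 ± 97.6 and 1476 ± 154 (adjusted p = 3.97e-06). Col13a1 and Col23a1, which also cross the cell membrane, had lowest means in number 2 of 12467 ± 2316 and 1518 ± 238, and 18520 ± 831 and 2209 ± 112 in number 1 (adjusted p = 0.000595 and 0.00173). Col25a1, a neuronal member, averaged 9.54 to 15.7 and did not pass (adjusted p = 0.550). Col8a2, a network collagen of vessel walls and the eye, was the collagen for which the 4 samples numbered 2 lay below all 20 others, at 548, 771, 688 and 550.4 (adjusted p = 0.000503). Of all genes 0.832% showed that. Its relative Col8a1 also passed (adjusted p = 0.00260), with means of 628 in number 2, 616 in number 3 and 851 in number 1, and Col10a1, of growth cartilage, averaged 7.18 to 27.5 and did not (adjusted p = 0.323).

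Of the fibril-associated collagens 3 of 9 passed, near the 31.5% of all genes and below the 58.3% of those with a mean of at least 1000. Col12a1, which binds the surface of type I fibrils, was high in number 1, at 30548 ± 1123, and averaged 19818 to 23596 in the others (adjusted p = 0.00427). Col16a1 averaged most in number 2, but there it had 17913, 31102, 15717 and 36620 in A2, B2, C2 and G2, so B2 and G2 lay above every other library and A2 and C2 did not (adjusted p = 0.00709). Col9a2, a chain of cartilage type IX, was lowest in number 1, at 368 ± 57.7, and highest in number 2, at 607 ± 77.0 (adjusted p = 0.00250). Col14a1, a fibroblast collagen, varied widely within numbers, from 1913 to 6158 in number 1 and from 843 to 3906 in number 6, and did not pass (adjusted p = 0.0908). Col9a1, Col9a3, Col19a1, Col20a1 and Col22a1 did not pass, with adjusted p-values from 0.618 to 0.940. Of the rest, Col7a1, which builds the anchoring fibrils under epithelia, passed with 3076 ± 233 in number 1 and means of 1925 to 2281 elsewhere (adjusted p = 0.0253), and the sparse Col26a1 and Col28a1 did not (adjusted p = 0.170 and 0.831).

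By class the medians of the deviation from the letter mean, on the log2 scale, were 0.60 in number 1 and 0.15 in number 2 for the 11 fibrillar genes, and 0.50 and 0.03 for the 8 basement membrane genes. For the 25 others they were 0.22 and 0.01. In number 6 they were -0.16, -0.24 and -0.03. Over all genes these medians were -0.01 in number 1, 0.004 in number 2 and 0.001 in number 6. Fibrillar genes took 0.701% ± 0.0808 of the summed values in number 1 and 0.568% ± 0.0768 in number 2 (SD, n = 4), and 0.236% to 0.323% on average in numbers 3 to 6. Basement membrane genes took 0.497% ± 0.0377 and 0.346% ± 0.0374, and 0.271% to 0.327% in numbers 3 to 6. In number 2 the fibrillar share stayed apart from numbers 3 to 6 (lowest 0.491% against a highest 0.356%), and the basement membrane share did not (0.291% to 0.369% against 0.248% to 0.356%). Col1a1, Col1a2 and Col3a1 had the highest normalized counts of the 11 fibrillar genes, so the fibrillar share follows these genes most. In number 2 the deviations of the 11 ran from -0.30 to 0.92, with 9 above 0.

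For 3 pairs of genes whose chains share a trimer the ratio varied far less than the levels. The log2 ratio of Col6a1 to Col6a2 had an SD of 0.04 over the 24 libraries, where the genes themselves had SDs of 0.33 and 0.32. The ratio of Col4a1 to Col4a2, whose shared interval is printed above, had an SD of 0.05 against 0.42 and 0.38, and that of Col4a3 to Col4a4 an SD of 0.08 against 0.28 and 0.26. Among the 351 pairs of the 27 abundant collagens these were the 3 smallest SDs, and the median pair had 0.39.

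The other pairs were looser. The ratio of Col1a1 to Col1a2 had an SD of 0.22 and ranked 51 of 351, and its mean was -0.08 in number 1 and 0.05 in number 2 but -0.43 to -0.37 in numbers 3 to 6, a difference that was not tested. Col5a1 to Col5a2 had an SD of 0.18, and Col4a5 to Col4a6, whose starts are 1415 bases apart, 0.14. Across the networks the ratio of Col4a1 to Col4a3 had an SD of 0.39. The ratio of Col6a1 to Col6a4 had an SD of 1.08 and a mean that went from 8.09 in number 1 to 5.14 in number 6. The SDs are over libraries that share numbers and letters, and are given as a description with no test.

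**Figure D5:**
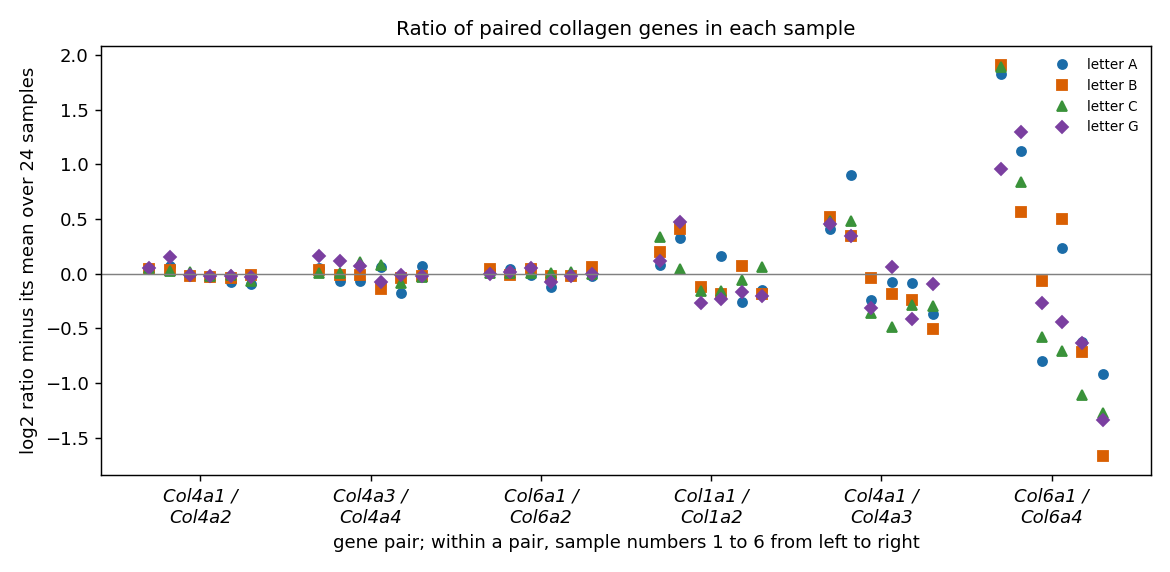
Log2 ratio of 6 pairs of collagen genes in each of the 24 libraries, minus the pair's mean; within a pair the sample numbers run from 1 at the left to 6 at the right, and colours and shapes show letters. The points of Col4a1/Col4a2, Col4a3/Col4a4 and Col6a1/Col6a2 stay near 0 (SDs of 0.05, 0.08 and 0.04), while Col4a1/Col4a3 and Col6a1/Col6a4 spread by number.

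Genes that act on collagen chains were read from 6 lists, and 0 genes in them passed the F test over letters. The lists were chosen with earlier results of these data known, so the shares that passed are a description. In each list 2 genes are named because they had the smallest p over numbers. Over numbers, of the enzymes and chaperones that hydroxylate and fold the chains in the endoplasmic reticulum 18 of 22 passed, or 81.8%. In the same test 31.5% of all genes and 58.3% of those with a mean of at least 1000 passed. Serpinh1, the collagen chaperone HSP47, had 43574 ± 3340 normalized counts in number 1, 36926 ± 4103 in number 2 and 19437 ± 5023 in number 6 (SD, n = 4; limma adjusted p = 6.37e-05). Sec24d, a coat protein of the vesicles that carry procollagen, had 5019 ± 52.9, 5340 ± 302 and 3500 ± 473 in the same numbers (adjusted p = 4.70e-05). P4ha2, a prolyl hydroxylase subunit, had the smallest p of the list and another order: it was highest in number 4, at 6359 ± 474, and had 3901 ± 90.5 in number 1 (adjusted p = 7.35e-07).

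Of the genes for propeptide removal and cross-linking 14 of 15 passed, again against 31.5% of all and 58.3% of abundant genes. Loxl2, a lysyl oxidase that cross-links type IV and fibrillar collagen, had 2512 ± 88.8 in number 1, 1689 ± 411 in number 2 and 861 ± 149 in number 6 (adjusted p = 5.78e-07). Pxdn, the peroxidasin that forms sulfilimine bonds in type IV collagen, had 37708 ± 2811 in number 1 and 22172 ± 2096 in number 4 (adjusted p = 1.03e-05). Of the laminins, nidogens and other basement membrane partners 13 of 15 passed, or 86.7%, with the same background. Lamc1 and Lamb1, the gamma 1 and beta 1 laminin chains, had 28398 ± 1810 and 16160 ± 862 in number 1 and 16917 ± 836 and 9304 ± 306 in number 6 (adjusted p = 3.61e-07 and 8.20e-07).

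Among fibril-binding proteins 13 of 18 passed, or 72.2%, where 31.5% of all and 58.3% of abundant genes did. Sparc, which binds collagen and is needed for fibril assembly, had 317037 ± 21322 in number 1, 215197 ± 38685 in number 2 and 150673 ± 9844 in number 6 (adjusted p = 1.97e-06), and Postn, periostin, had 55691 ± 2068 in number 1 and 32336 to 36954 on average in the others (adjusted p = 1.61e-05). Of the collagen receptors 9 of 12 passed, with that background. Itga2, the alpha 2 integrin chain, had 1008 ± 76.9, 685 ± 78.5 and 405 ± 130.1 in numbers 1, 2 and 6 (adjusted p = 3.40e-06), and Itga1 had 11245 ± 489 in number 1 and 7455 ± 1453 in number 2 (adjusted p = 0.000183). Of TGF-beta signalling genes, the pathway best known for raising collagen transcription, 14 of 17 passed, against 31.5% of all and 58.3% of abundant genes, and 12 of 17 had a positive deviation in number 1 and 5 a negative one. Ltbp2 had 19585 ± 1176 in number 1 and 9265 ± 817 in number 5 (adjusted p = 1.98e-05), and Tgfbr3 had 8352 ± 1109 in number 2 and 14831 ± 1058 in number 6 (adjusted p = 1.81e-05). The medians of the deviation in number 1 were 0.18 for folding, 0.35 for processing, 0.41 for basement membrane partners, 0.31 for fibril-binding proteins, 0.24 for receptors and 0.08 for TGF-beta genes, on the log2 scale.

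Some markers of other cell types also passed the test over numbers, where 31.5% of all genes and 58.3% of those with a mean of at least 1000 did, and their part in the collagen result was not tested. Fibroblast markers summed to 221258 to 237161 normalized counts in number 1, 184432 to 227209 in number 2, 175370 to 190896 in number 3, 168588 to 191863 in number 4, 164256 to 183621 in number 5 and 148465 to 187589 in number 6, and 5 of 8 passed the F test over numbers. The largest part of this sum was Fn1, itself a matrix gene, with a mean of 120127 in number 1. In number 1, 6 of the 8 fibroblast markers had a positive deviation on the log2 scale. Lum (0.56), Npnt (0.41) and Dpt (0.35) were highest there, Fn1 was highest in number 2 (0.38), and Pdgfra (0.05 in number 1, -0.56 in number 2), Dcn, Tcf21 and Pi16 were highest in numbers 3, 4, 5 and 4. Smooth muscle and myofibroblast markers, 5 of 6 passing, summed to 26187 to 37241 in number 1, 23016 to 29611 in number 2, 15504 to 26194 in number 3, 18383 to 38761 in number 4, 17819 to 23765 in number 5 and 15266 to 21231 in number 6. The top of number 4 was A4 alone, and B4, C4 and G4, at 25793, 18383 and 23503, lay below all 4 libraries numbered 1. Endothelial markers, 6 of 6 passing, summed to 279082 to 310020 in number 1, 157910 to 241975 in number 2, 210771 to 245809 in number 3, 240555 to 281760 in number 4, 237304 to 271810 in number 5 and 240651 to 294042 in number 6. Cartilage markers summed to 3502 to 7590 over all libraries, with 1 of 8 passing, and mesothelial, neutrophil and cardiac muscle markers had 0 passing. The macrophage (3 of 5), alveolar type 1 (3 of 5), alveolar type 2 (4 of 5), squamous (2 of 6) and skeletal muscle (1 of 6) lists also had members that passed, and a share of 3 of 5 is near that of abundant genes. All 4 red blood cell markers passed. Their median deviation was low in numbers 1 and 2, where the fibrillar genes were high, at -0.75 and -0.90. In number 3 both were low, at -0.37 for the red blood cell markers and -0.17 for the fibrillar genes. The red blood cell medians were 0.85, 0.64 and 0.53 in numbers 4, 5 and 6. In A, B and C the summed markers were lower in numbers 1 and 2 than in numbers 3 to 6, though B1 at 211390 was near B3 at 214653. In G this did not hold: G1 had 170008, above G3 at 136407 and G4 at 146984. No marker found in the table was below 1 normalized count in every library.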

How the data were processed

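The members and gene lists were chosen with earlier results of these data known. The authors deposited 1 table of signal values, normalized read counts per gene symbol for 24 libraries, as its form shows; the normalization and counting are not given in the sources used here. Per the submitters' processing notes STAR and the build GRCm38 were named, with no role. No constant step gave back whole reads, so the design's branch for normalized values applied and no count test was run.

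limma 3.58.1 (R 4.3.3) was fitted with an intensity trend to log2(value + 1) for all genes with a mean of at least 0.5, which all 30667 had. An F test over letters, 6 contrasts and an F test over numbers with the letter as a term were each adjusted by Benjamini-Hochberg over all genes at 0.05. The added 1 shrinks the log2 fold changes of low genes. Deviations are from the mean of a gene in its letter. The fit was tested on simulated data.

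Named by rule were the marker genes, all type IV genes, those with the smallest p in each test or the largest or smallest SD, those with 1 library over 4 times the next, and 2 genes per list. A part of the rule that needs coding lengths could not be applied. Other collagens, Serpinh1 and single marker genes were named after their values were seen. Same-numbered libraries correlated above 0.1 in all 6 pairs, over 21922 genes, in B against A (0.17 to 0.59) and C against B (0.13 to 0.60), but in 5 of 6 in C against A (0.07 to 0.65) and G against B (0.09 to 0.51) and in 4 of 6 in G against A (-0.05 to 0.49) and G against C (0.03 to 0.43). Any pairing comes from the data, as no label states it. The alternatives were other pseudocounts, filters, scalings, sample weights, the number as a block, and libraries left out.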

Additional observations from a re-analysis of the deposited data

Results flagged for a closer look

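Within a letter, 7 values of the 17 collagens named by rule lay far from the other 5 libraries, by Dixon's gap ratio at the 95% limit. With 68 groups of 6 examined, 3.4 would be flagged at 1 in 20 by chance. Of these, 5 were type IV values in libraries numbered 1. In A1, Col4a1 had 137857 normalized counts where the next A library had 79596, Col4a2 had 85849 against 48836, Col4a5 had 20520 against 12577 and Col4a6 had 3252 against 2004. In C1, Col4a5 had 18372 where the next C library had 13497.

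Col2a1, the cartilage fibril chain, had 112 normalized counts in A2 where the next A library had 24.8, and 19.6 in B1 where the next B library had 9.09. On the log2 scale the gap remained past the limit for Col4a1 and Col4a2 in A1 and Col4a5 in C1.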

How the results depend on the processing

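Between letters, 0 collagens passed under every alternative, in the F test and in each pair, with the sample number as a replicate block included (0 of 44). The block changed no call. With it the smallest adjusted p-values of collagens in limma were in G against A, at 0.0873 for Col6a6 and 0.0996 for Col20a1. The share of all genes that passed with the block is not given here. Over numbers the main count of 29 was 29 or 30 under the other pseudocount, filters, scalings and sample weights, and 27 to 31 when 1 library was left out. It was 26 without the samples numbered 2, 20 without those numbered 1, and 11 without both, with 16 libraries left. These last alternatives were chosen after seeing the data. Without both, Col1a1 (adjusted p = 0.0546), Col4a1 (0.0641), Col4a2 (0.109), Col4a4 (0.0519), Col17a1 (0.111) and Col8a2 (0.261) no longer passed in limma. Fewer libraries enter these fits. The share of all genes that passed under each of the alternatives over numbers is not given here, so a changed count is not a result particular to the collagens. The 22 passing collagens highest in number 1 were the same genes under each scaling tried (22 of 22 shared). Sequencing depth is unknown, and the 11 collagens with means below 100 had 0 calls.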

Other observations

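Of the 8 cartilage markers in the table, 4 were highest in A2 among the 24 libraries (Acan, Comp, Matn1 and Hapln1) and 1, Matn4, was lowest there, at 2899 against a median of 4959. Sox9 and Matn3 ranked 14 from the highest and Snorc 20. Col10a1, the collagen of growth cartilage, had 73.2 normalized counts there and Col2a1 112. Comp had 156 in A2 against a median of 97.4. Acan, the cartilage proteoglycan aggrecan, had 38.6 in A2, Hapln1, its link protein, 15.9, and Matn1, a cartilage matrilin, 13.9, where the next highest library of each had 12.2, 4.02 and 6.02.

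A4, the library with high Krt13 and Acta1, held the most Col28a1, at 80.2, where the next library had 30.2. Dcn, decorin, was also highest in A4, at 20729, where the next library had 10226.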
